A study of Mus musculus with 34 samples.

Results

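Neutrophil granule and receptor genes were followed in mouse lung 28 days after instillation of carbon nanotubes. The 10 genes were chosen by name: the receptor Csf3r, the cytosolic pair S100a8 and S100a9, the granule genes Mpo, Elane, Camp, Ltf, Ngp and Mmp8, and the surface gene Ly6g. Each gene was read from the array probe whose RefSeq accession maps to it, and where several did, from the one with the highest mean lung signal. A probe was matched for 9 of the 10 genes, out of 20660 genes named on the array in this way; Ly6g was not matched and is not analysed here.

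Lungs were taken from C57BL/6 females, whose age the labels give as 5 to 7 weeks, 28 days after they received 1 intratracheal dose in 40 µl. The groups were 5 control mice, 5 mice given 18 µg and 5 given 54 µg of NRCWE-043, 6 and 5 given these doses of NRCWE-044, and 3 and 5 given them of NRCWE-045. NRCWE-043, NRCWE-044 and NRCWE-045 are code names of carbon nanotube materials, and the sources used here do not give what the control mice received. Lung RNA carried Cy5 on every array and a common reference RNA from 11 mouse cell lines carried Cy3, so each value is a log2 ratio of lung to reference, and a change is the difference between the mean log2 ratios of 2 groups. The RNA came from random pieces of frozen whole lung, in which fewer neutrophils and less RNA per neutrophil cannot be told apart.

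Neutrophils are short-lived blood granulocytes that mature in bone marrow and enter the lung from the circulation. Their granules are filled in sequence: the primary granule genes Mpo and Elane are transcribed in early precursors, the secondary granule genes Camp, Ltf and Ngp in later precursors, and tertiary granule genes after that, so that mature cells carry granule proteins with little of the early transcripts. Mature neutrophils keep abundant S100a8 and S100a9 RNA, whose products form the calcium-binding heterodimer calprotectin, and Csf3r, the receptor for granulocyte colony-stimulating factor. C/EBP factors and PU.1 are the transcription factors best known for driving granulocyte genes.

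Across arrays S100a8 moved with S100a9, and Ngp with Camp mainly through 5 arrays high in both. The 250 bases upstream of the RefSeq start of these 4 genes are therefore shown (GRCm38.p6, RefSeq). They lie at chr3:90668821-90669070, plus strand for S100a8; at chr3:90695722-90695971, minus strand for S100a9; at chr9:110419558-110419807, plus strand for Ngp; and at chr9:109849457-109849706, minus strand for Camp. Capitals mark matches, on either strand, to a C/EBP core (TTGCNNAA) or a PU.1 core (GAGGAA), 2 motifs that share no overlap here.
S100a8: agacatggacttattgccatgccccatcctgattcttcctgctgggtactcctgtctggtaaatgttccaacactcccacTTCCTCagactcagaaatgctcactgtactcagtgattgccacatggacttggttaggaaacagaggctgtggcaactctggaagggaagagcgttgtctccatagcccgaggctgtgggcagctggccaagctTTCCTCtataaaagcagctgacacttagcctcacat
S100a9: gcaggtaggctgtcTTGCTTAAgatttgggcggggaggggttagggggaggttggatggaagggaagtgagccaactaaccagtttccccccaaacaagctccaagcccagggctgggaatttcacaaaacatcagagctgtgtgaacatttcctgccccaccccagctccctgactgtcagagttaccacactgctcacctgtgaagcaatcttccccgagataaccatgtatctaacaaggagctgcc
Ngp: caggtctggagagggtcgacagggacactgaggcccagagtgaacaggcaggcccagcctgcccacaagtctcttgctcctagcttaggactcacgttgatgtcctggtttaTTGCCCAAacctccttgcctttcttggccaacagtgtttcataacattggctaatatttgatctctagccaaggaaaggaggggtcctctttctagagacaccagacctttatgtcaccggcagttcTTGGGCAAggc
Camp: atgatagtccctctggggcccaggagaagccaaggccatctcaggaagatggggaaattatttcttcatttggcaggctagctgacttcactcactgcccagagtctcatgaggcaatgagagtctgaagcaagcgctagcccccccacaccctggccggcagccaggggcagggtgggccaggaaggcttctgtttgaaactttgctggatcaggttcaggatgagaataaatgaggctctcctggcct
The S100a9 window held 1 C/EBP core match and the Ngp window 2, while those of S100a8 and Camp held none. The S100a8 window held 2 PU.1 core matches and the other 3 windows none. Of all 32851 RefSeq promoter windows of 250 bases, 9.56% held the C/EBP core and 23.3% the PU.1 core. Among the 9 measured genes the C/EBP core was present upstream of S100a9, Ngp, Ltf and Mmp8, and the PU.1 core upstream of Csf3r, S100a8, Ltf, Mpo, Elane and Mmp8. A match describes the letters of the window and was not tested as a binding site.

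On all 34 arrays, 7 of the 9 genes had lung signal well above background. Ngp was so on 19 arrays and Mpo on 9, with 0 of 5 in the NRCWE-045 54 µg group, so no Mpo fold is given for that group. In the reference channel Ngp was well above background on 3 arrays, Mmp8 on 4 and Ltf on 7, and for these genes the ratio to the reference has no firm denominator. In control lungs the log2 ratio to the reference was 6.41 ± 0.23 for S100a9 (SD, n = 5), an 85.2-fold excess, 3.70 ± 0.91 for Ltf, 2.07 ± 0.28 for S100a8 and 1.53 ± 0.28 for Csf3r. It was 1.03 ± 1.07 for Camp, 0.81 ± 0.35 for Mmp8, 0.24 ± 0.51 for Ngp, 0.08 ± 0.10 for Elane and -0.40 ± 0.35 for Mpo. These ratios compare lung with reference within a probe and do not rank the genes by RNA level.

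The share of probes with lung signal well above background ran from 50.8 to 68.5% over the arrays. Pairs of arrays within a group had correlations of 0.919 to 0.978 across genes. The arrays sat on 6 slides, each with its own scan day; slide accounted for 0.781 of the variance of the first principal component (R², 17.9% of the total variance) and group for 0.144. Lung markers were well above background on all arrays: 8 of 8 for alveolar type 2 cells, 5 of 5 tested for type 1 cells, 3 of 4 for club cells, 7 of 7 for endothelium and 9 of 9 for alveolar macrophages. The labels do not say that the mice of a group were handled separately, so p-values measure the spread between these arrays.

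**Figure D1:**
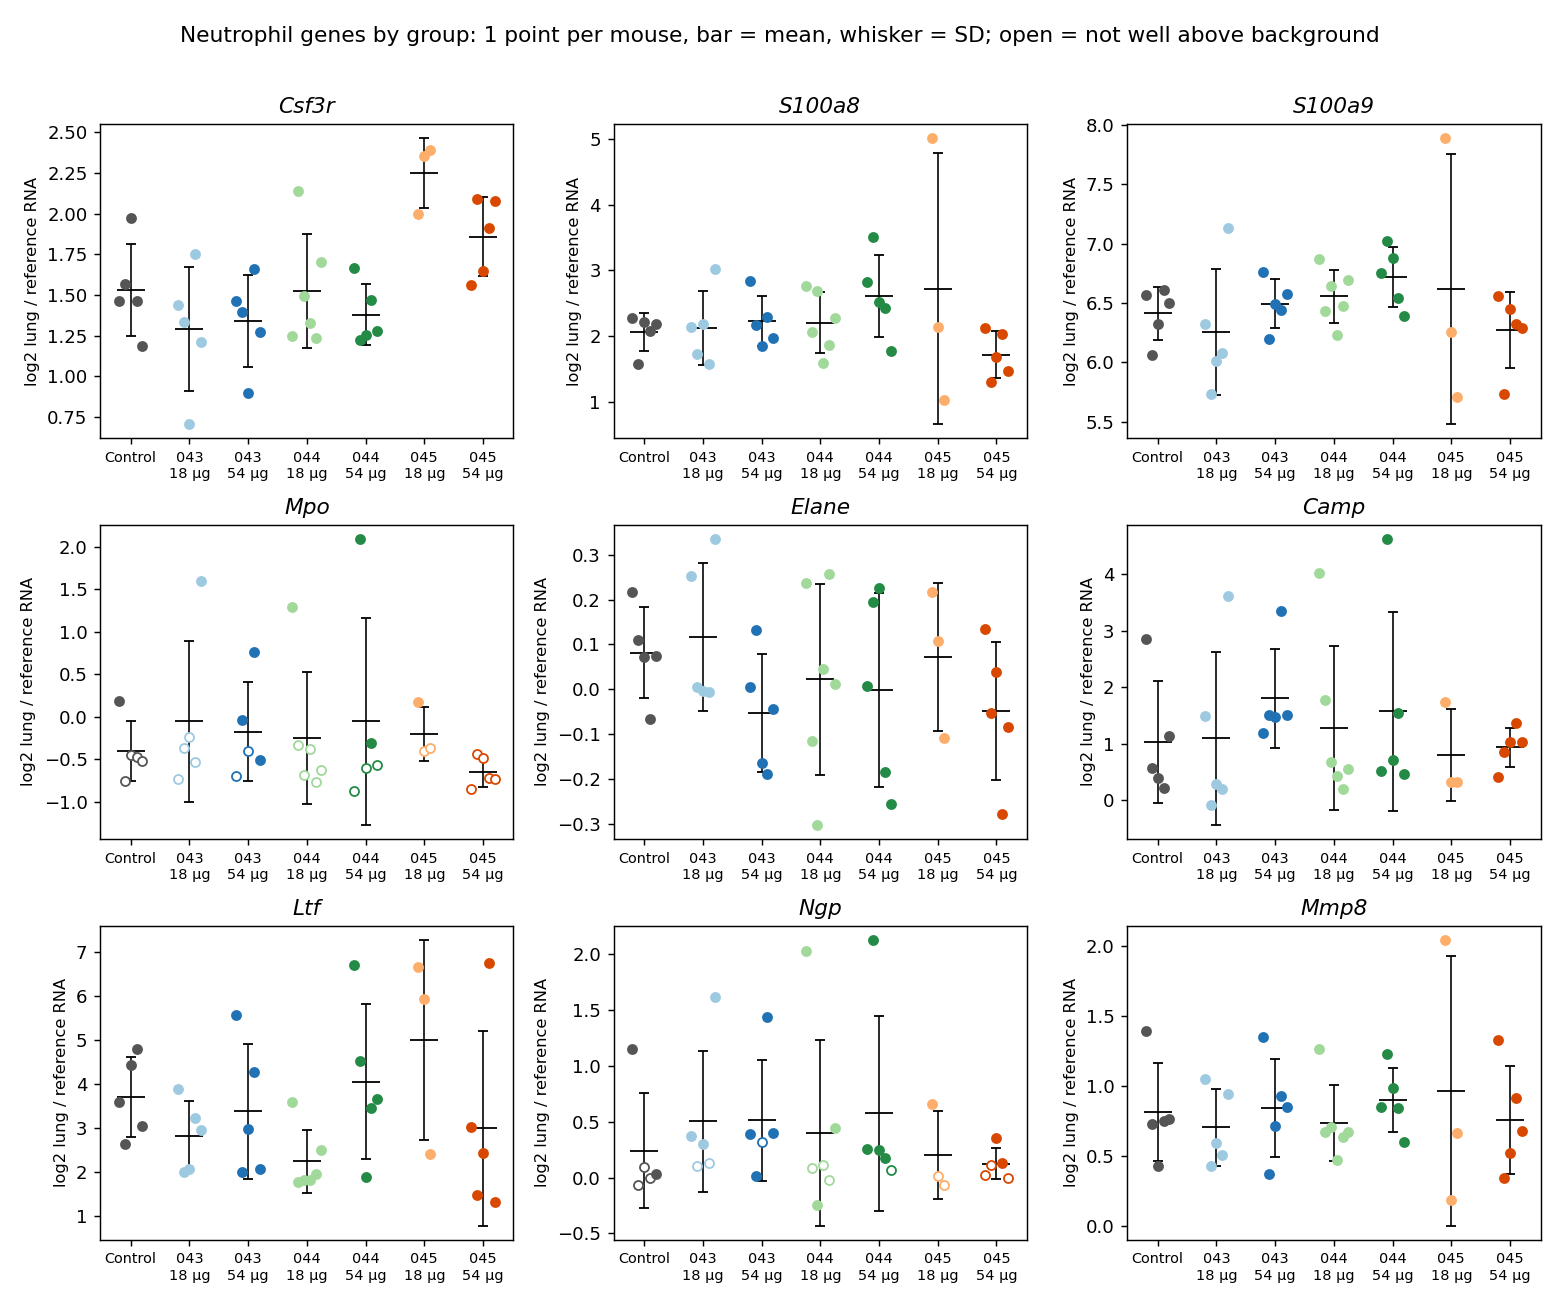
Log2 ratio of lung to reference RNA (vertical axis) of 9 neutrophil genes in the 7 groups (horizontal axis), with 1 point per mouse, open where the spot was not well above background, and mean and SD in black. The Csf3r probe is highest with NRCWE-045, and Ngp, Camp and Mpo each have single high arrays in several groups.

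None of the neutrophil genes passed the adjusted threshold against the controls with any material at either dose. With limma and Benjamini-Hochberg adjustment over all 29316 units tested, 0 of 9 genes and 0% of units were called at 54 µg of each of the 3 materials. The same held at 18 µg, with 0 of 9 genes and 0% of units. At an unadjusted p under 0.05 the genes passing at 54 µg were 0 for each material, against 5.63% of units for NRCWE-043, 5.84% for NRCWE-044 and 3.92% for NRCWE-045. At 18 µg they were 0, 0 and 1 (Csf3r), against 4.35%, 3.13% and 7.92%. The mean of the 3 materials gave 0 genes by either rule at 54 µg, where 5.61% of units passed unadjusted, and at 18 µg, where 3.91% did; adjusted calls were 0% of units in both.

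**Figure D2:**
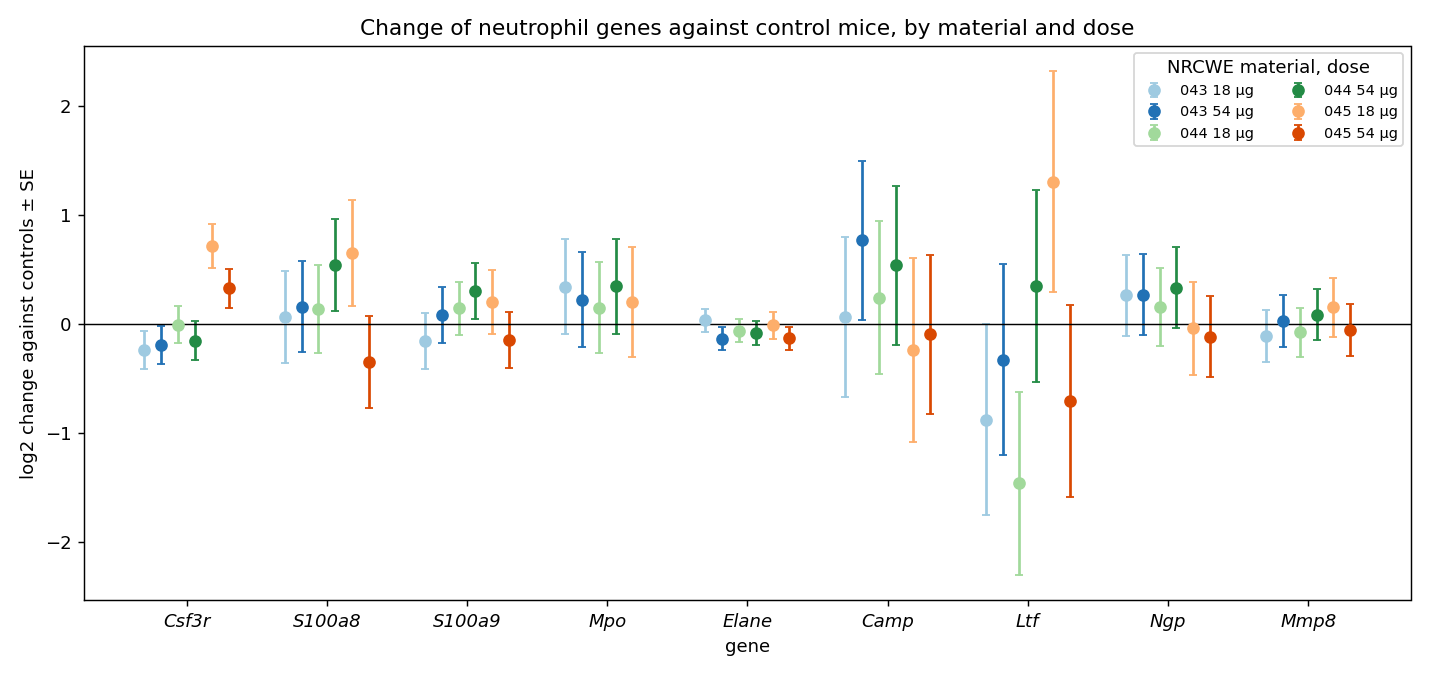
Log2 change against the 5 control mice (vertical axis, ± SE) of each neutrophil gene (horizontal axis) for the 6 exposed groups, in colour. Csf3r at 18 µg of NRCWE-045 (0.72) lies farthest from 0 in units of its SE; Mpo at 54 µg of NRCWE-045 is left out because no array there was well above background.

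The median change of the measured genes against controls was 0.08 for NRCWE-043 at 54 µg, with 6 of 9 genes above 0, and 0.34 for NRCWE-044, with 7 of 9. It was -0.12 for NRCWE-045, with 1 of 8. The 0.34 for NRCWE-044 is the change of Ngp, which was well above background on 2 of 5 control arrays and 4 of 5 in that group. At 18 µg the medians were 0.04, 0.14 and 0.20, with 5, 5 and 6 of 9 genes above 0. Single arrays turned several of these medians: without NRCWE-044 54 µg replicate 2 the 0.34 became -0.05, without NRCWE-044 18 µg replicate 1 the 0.14 became -0.16, and without NRCWE-045 18 µg replicate 1 the 0.20 became -0.27. With NRCWE-043 at 18 µg the sign changed in 6 of 22 alternatives, down to -0.17, and with processed signals the median for NRCWE-045 at 54 µg was 0.13. The median over all units lay between -0.01 and 0.00 in these 6 comparisons, which share the 5 control arrays, with 46.4 to 50.7% of units above 0.

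The probe of Csf3r, the granulocyte colony-stimulating factor receptor, was the only probe of the set with a called difference, between materials and not against controls. Whether it reports Csf3r RNA alone was not tested. Its log2 ratio was 1.46, 1.57, 1.97, 1.46 and 1.19 in the 5 control mice. With 18 µg of NRCWE-045 it was 2.00, 2.35 and 2.39, above every control array. With 54 µg of NRCWE-045 it was 1.56, 2.09, 1.65, 1.91 and 2.08, which overlaps the controls. With 18 µg of NRCWE-043 it was 1.44, 1.33, 0.71, 1.75 and 1.21, and all 5 lay below the 3 NRCWE-045 arrays of that dose. With 54 µg of NRCWE-043 it was 1.46, 1.40, 0.90, 1.66 and 1.27, and with 54 µg of NRCWE-044 1.67, 1.22, 1.26, 1.47 and 1.28. At 18 µg of NRCWE-044 the lowest, median and highest values were 1.24, 1.41 and 2.14. The order of the group means ran from NRCWE-045 at 18 µg (2.25 ± 0.22, SD) and at 54 µg (1.86 ± 0.24) through the controls (1.53 ± 0.28) down to NRCWE-043 at 18 µg (1.29 ± 0.38). The largest gap between neighbours in that order, 0.39 between the 2 doses of NRCWE-045, did not pass the test (limma adjusted p = 1.00), nor did the next, 0.33 between NRCWE-045 at 54 µg and the controls (limma adjusted p = 1.00). The other neighbours lay closer together than the within-group SD of 0.292.

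At 18 µg the Csf3r probe was lower with NRCWE-043 than with NRCWE-045. This probe followed 38 named genes outside the set at r above 0.9, and whether it reports Csf3r RNA alone was not tested. The log2 difference was -0.96 ± 0.20 (SE, 5 against 3 mice, limma adjusted p = 0.0272). Called were 1 of 9 neutrophil genes and 0.43% of units in that comparison. The exact two-sided permutation p was 0.0179, the smallest that 5 against 3 arrays allow, and 0.446 after adjustment over the 135 permutation tests of single genes. Within slides, which hold only 1 or 2 arrays a group, the difference was -0.56 on 1 slide and -1.33 on another. With slide as a fixed block it was -0.90 (limma adjusted p = 0.0635), and with slide as a random block -0.92 (limma adjusted p = 0.0242), which kept the call. The call was also lost with array weights, median centring, the processed signals or the lung channel alone, and without any of 5 single arrays (replicates 2 and 3 of NRCWE-045 18 µg and replicates 2, 3 and 5 of NRCWE-043 18 µg), with adjusted p values of 0.0611 to 0.12. The difference between NRCWE-045 at 18 µg and controls was 0.72 ± 0.20 (limma adjusted p = 0.276; 3 of 3 mice above all controls), and at 54 µg 0.33 ± 0.18 (adjusted p = 1.00).

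The other comparisons between materials and doses gave no adjusted call for a neutrophil gene. For NRCWE-043 against NRCWE-044 at 18 µg 0 of 9 genes were called, with 0.0102% of units. For NRCWE-043 against NRCWE-045 at 54 µg they were 0 of 9, with 0.00341%. For NRCWE-044 against NRCWE-045 at either dose and NRCWE-043 against NRCWE-044 at 54 µg they were 0 of 9, with 0% of units, and likewise for 54 against 18 µg of each material. At an unadjusted p under 0.05 the genes were Csf3r for NRCWE-043 against NRCWE-045 at 54 µg (5.1% of units), and Csf3r and S100a8 for NRCWE-044 against NRCWE-045 at 54 µg (3.6%). At 18 µg they were Csf3r and Ltf for NRCWE-043 against NRCWE-045 (10.7%) and for NRCWE-044 against NRCWE-045 (6.16%). None passed for NRCWE-043 against NRCWE-044 at 54 µg (4.79%) or 18 µg (5.56%). For dose, none passed with NRCWE-043 (3.13%), Ltf did with NRCWE-044 (5.24%) and S100a8 with NRCWE-045 (2.36%). The test for any difference among the 7 groups called 0 of 9 genes and 0.0443% of units; Csf3r had the smallest p (limma adjusted p = 0.13) and was the 1 gene under an unadjusted 0.05, against 7.02% of units.

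Across arrays the Csf3r probe followed no other neutrophil gene. Its correlations with the other 8 genes over the 34 arrays ran from r = -0.27 to 0.22, with permutation p of 0.122 or more for r. In contrast, 38 named genes outside this set correlated with Csf3r at r above 0.9. The closest were Mtif2 (r = 0.990 over 34 arrays, 0.993 with slide means removed), Ap5z1 (0.976), Pclaf (0.976), Pbld1 (0.975) and Slc10a1 (0.974). Mtif2 encodes a mitochondrial translation initiation factor and Slc10a1 a bile acid transporter of liver. The Csf3r neighbours were looked at after its values were seen, and correlation across arrays shares the reference channel and the slides. The median intensity of the Csf3r probe was 57430 in Cy5 and 18820 in Cy3. At 18 µg Mtif2 was 1.65, 1.87 and 2.06 with NRCWE-045 and 1.18, 1.06, 0.49, 1.51 and 0.89 with NRCWE-043. Every NRCWE-043 value thus lay below the NRCWE-045 values, as for Csf3r. What the Csf3r probe shares with these genes was not tested.

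S100a8 and S100a9, the calprotectin genes, varied together from mouse to mouse and passed no test against the controls. In controls S100a8 was 2.28, 1.57, 2.21, 2.08 and 2.19, and S100a9 6.57, 6.06, 6.32, 6.61 and 6.50. With 54 µg of NRCWE-044, the group with the highest S100a9 mean, S100a8 was 2.82, 3.50, 2.52, 2.44 and 1.78 and S100a9 6.75, 7.02, 6.88, 6.54 and 6.39; both overlapped the controls. With 18 µg of NRCWE-045 the 3 mice were far apart, at 5.01, 2.14 and 1.03 for S100a8 and 7.89, 6.26 and 5.70 for S100a9. With 54 µg of NRCWE-045 S100a8 was 2.12, 1.30, 1.68, 2.04 and 1.48. The log2 changes against controls at 54 µg were 0.16 ± 0.42, 0.54 ± 0.42 and -0.35 ± 0.42 for S100a8 (SE; NRCWE-043, NRCWE-044 and NRCWE-045, limma adjusted p of 0.97 to 1.00). For S100a9 they were 0.08 ± 0.26, 0.30 ± 0.26 and -0.14 ± 0.26. The 95% interval of the S100a8 change ran from -0.32 to 1.40 with NRCWE-044.

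A single mouse set the S100a8 value at 18 µg of NRCWE-045. The change against controls was 0.66 ± 0.49 with all 3 mice and -0.49 without replicate 1; that of S100a9 was 0.20 ± 0.30 and -0.43. The difference between 54 and 18 µg of this material, -1.0 ± 0.49 for S100a8 (limma adjusted p = 1.00), became 0.14 without it. On that array the 15 other receptor and surface genes of neutrophils averaged 0.70 log2 units above their medians and the 12 other mature neutrophil genes 0.85, each the highest of the 34 arrays. Lists of other cells also had their highest value of the series in this group: B cell 0.835, eosinophil 0.365 and club 2.49. Others did not, such as the platelet and monocyte lists, whose highest values in the group were -0.05 and 0.25.

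Over the 34 arrays S100a8 and S100a9 correlated at r = 0.892 and rho = 0.791 (permutation p = 1e-05 for both, the smallest that 100000 permutations can give; adjusted over the 36 pairs of genes computed, 7.2e-05 for r and 0.00018 for rho). The correlation was 0.814 without the 2 arrays farthest from the S100a8 median. Mmp8, the neutrophil collagenase of secondary granules, correlated with S100a8 at r = 0.740 (rho = 0.618, permutation p = 2e-05 and 0.00019, adjusted 0.00012 and 0.00171) and with S100a9 at r = 0.757 (rho = 0.725, adjusted permutation p = 7.2e-05 and 0.00018). Without the 2 farthest arrays r was 0.520 and 0.653. The named genes most like S100a8 were Retnlg (r = 0.843), Asprv1 (0.832), Pram1 (0.787), the chemokine receptor gene Cxcr2 (0.772) and Cstdc4 (0.749). With slide means removed these were 0.896, 0.824, 0.772, 0.769 and 0.722, and without the 2 farthest arrays 0.756, 0.735, 0.556, 0.570 and 0.559. Retnlg and Asprv1 are on the list of mature neutrophil genes used here.

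**Figure D3:**
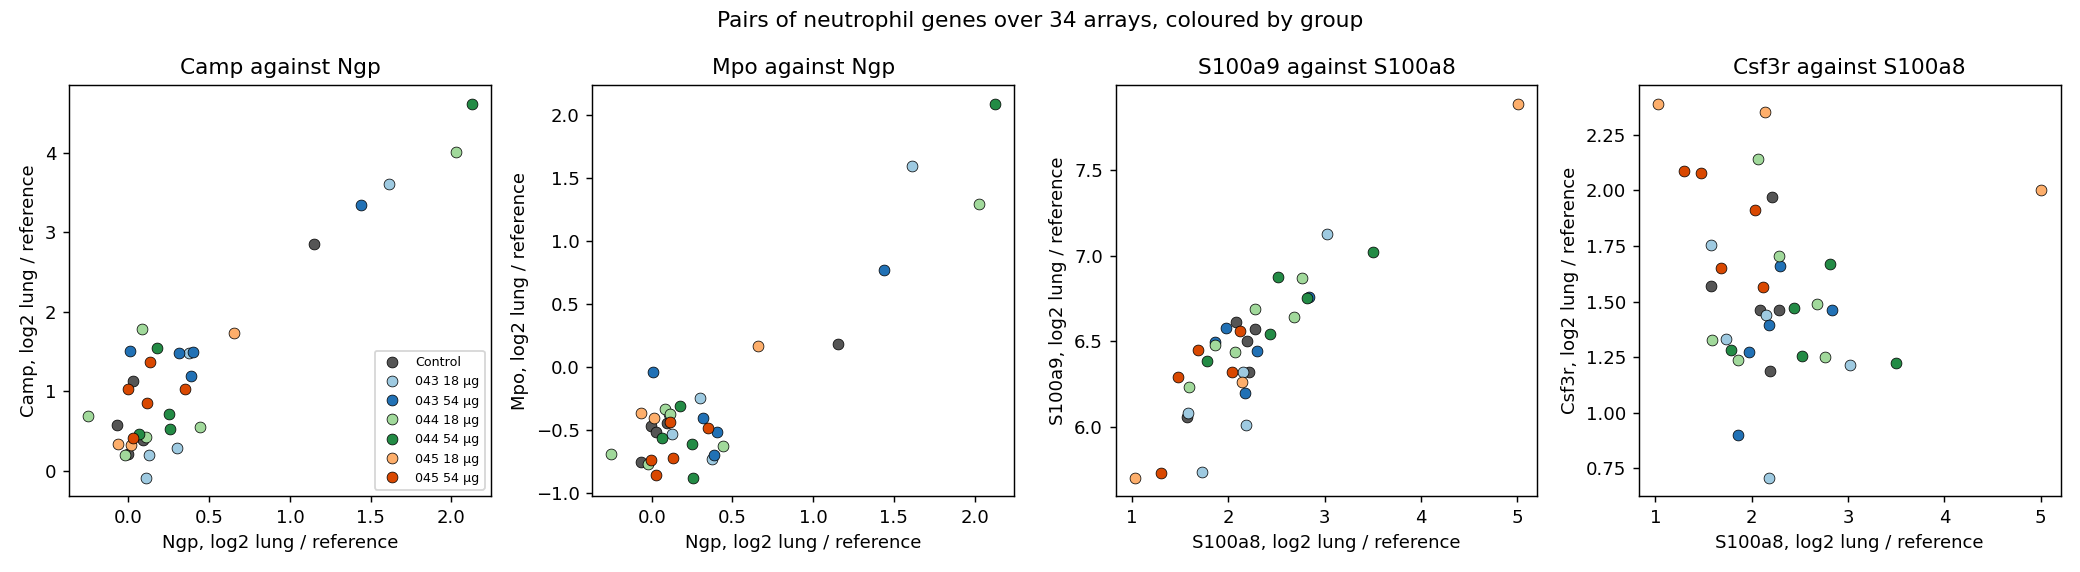
Pairs of neutrophil genes over 34 arrays, each axis the log2 ratio of lung to reference RNA and each point a mouse coloured by group. Ngp with Camp shows 5 arrays apart from the others. Ngp with Mpo shows all 5 apart along the Ngp axis, while along the Mpo axis the lowest of them adjoins the other arrays. S100a8 and S100a9 rise together, and Csf3r does not follow S100a8 (r = -0.13).

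Ngp, Camp and Mpo were each highest on the same 5 arrays, which came from 5 groups. Ngp encodes a neutrophil granule protein, Camp the cathelicidin precursor and Mpo myeloperoxidase. The arrays were control replicate 1, NRCWE-043 18 µg replicate 5 and 54 µg replicate 4, and NRCWE-044 18 µg replicate 1 and 54 µg replicate 2, on 4 slides. On these Ngp was 1.15, 1.61, 1.44, 2.03 and 2.13, and on the other 29 arrays it ran from -0.25 to 0.66. Camp was 2.85, 3.61, 3.34, 4.01 and 4.62, and elsewhere -0.08 to 1.78. Mpo was 0.19, 1.60, 0.77, 1.29 and 2.09, and elsewhere -0.88 to 0.17. The other primary granule gene, Elane, was 0.22, 0.34, -0.19, 0.24 and 0.20 on the 5 arrays, and -0.30 to 0.34 over all 34. The secondary granule gene Ltf was 3.60, 2.95, 4.28, 3.58 and 4.54 there, and 1.31 to 6.76 over all arrays. None of the 8 NRCWE-045 arrays, of 34 in all, was among the 5, and whether the materials differ in this was not tested. Since the arrays form 2 clusters in Ngp and Camp, no pooled correlation is given. In Mpo the lowest of the 5 values, 0.19, adjoins the highest elsewhere, 0.17, and the rest of the 5 run from 0.77 to 2.09. Over the other 29 arrays r was 0.426 for Ngp with Camp, 0.269 for Ngp with Mpo and 0.286 for Camp with Mpo.

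**Figure D4:**
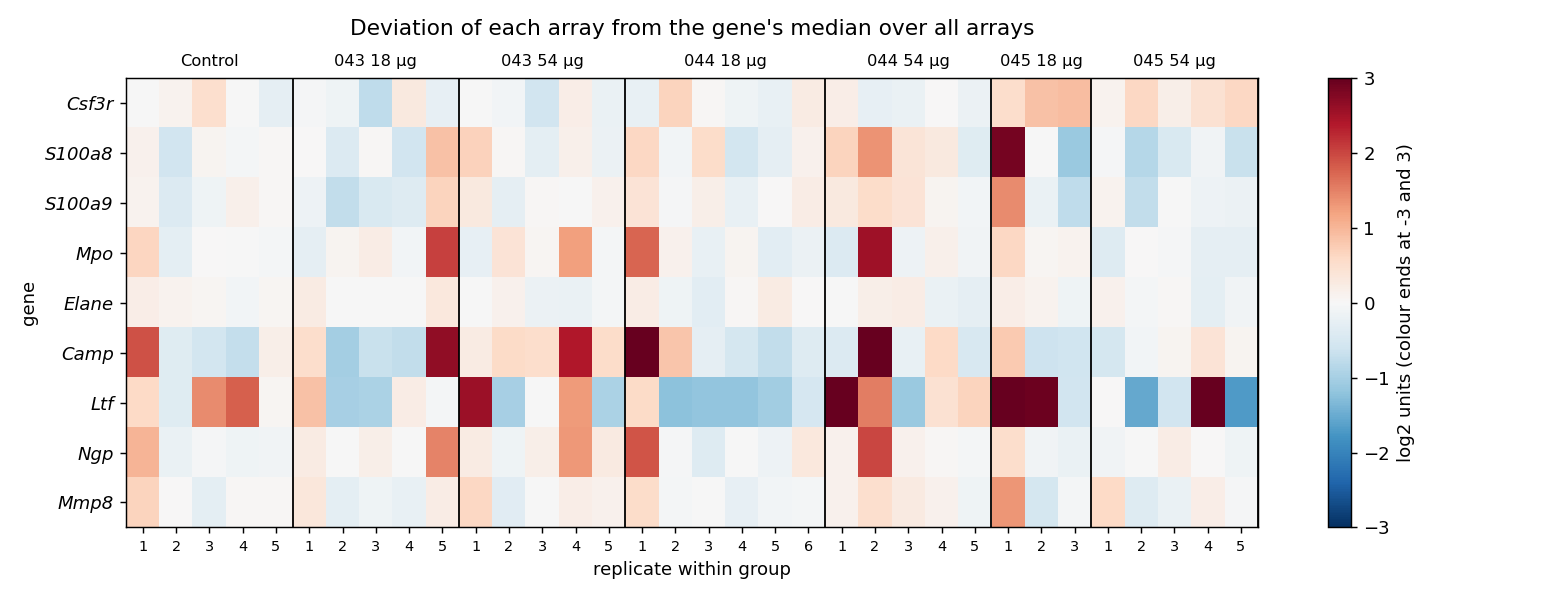
Deviation of each array (columns, by group and replicate) from the median of each gene (rows) over the 34 arrays, in log2 units. Ngp, Camp and Mpo are high in the same 5 columns, S100a8 and S100a9 share a high column in NRCWE-045 18 µg, and Ltf has its own pattern.

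The genes most like Ngp over all 34 arrays were Ctsg (r = 0.789), Kel (0.777), Tspo2 (0.650), Rhd (0.649) and Slc4a1 (0.647). This likeness rests largely on the 5 high arrays. Over the other 29 arrays r was 0.226, 0.486, 0.296, 0.0113 and 0.435. Ctsg encodes cathepsin G of primary granules, and Kel, Rhd and Slc4a1 are genes of red cells and their precursors. Kel was well above background on 7 of the 34 arrays, Rhd on 6 and Ctsg on 15, so many of the values behind these correlations are near background, as are those of Ngp. The 10 tested genes of the erythroid list averaged -0.11, 0.23, 0.03, 0.26 and 0.11 on the 5 arrays, within the range of -0.41 to 0.80 over all arrays. The 6 other primary granule and precursor genes averaged 0.01, 0.19, 0.06, 0.00 and 0.37, where the range over all arrays was -0.20 to 0.37. The part of red cell or marrow precursor RNA in the Ngp, Camp and Mpo values was not tested.

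Leaving out a single high array moved the group differences of these genes. The change of Camp at 54 µg of NRCWE-044 was 0.54 ± 0.73 (SE, limma adjusted p = 0.998) and -0.22 without replicate 2; that of Ngp was 0.34 ± 0.37 and -0.05. At 54 µg of NRCWE-043 Camp was 0.77 ± 0.73 above controls, 0.39 without replicate 4 and 1.23 without control replicate 1. A second Camp probe, which followed the first at r = 0.979, gave 0.41 ± 0.58. Mpo was well above background on 1 of 5 control arrays, 3 of 5 at 54 µg of NRCWE-043 and 2 of 5 at 54 µg of NRCWE-044, so its differences from controls are mostly between values near background. They were 0.22 and 0.35, and became -0.01 and -0.19 without replicate 4 and replicate 2 of these groups.

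Ltf, the gene of the iron-binding protein lactoferrin, had the widest spread of the 9 genes, from 1.31 to 6.76 over the arrays. In controls it was 3.60, 2.64, 4.43, 4.79 and 3.06. With 18 µg of NRCWE-045 it was 6.68, 5.93 and 2.42, and with 54 µg 3.02, 1.48, 2.43, 6.76 and 1.31. With NRCWE-044 it was 6.71, 4.54, 1.89, 3.46 and 3.67 at 54 µg, and at 18 µg the lowest, median and highest were 1.76, 1.89 and 3.58. With 18 µg of NRCWE-045, 2 of 3 arrays lay above every control and 1 below; with 18 µg of NRCWE-044, 5 of 6 lay below every control. The change at 18 µg of NRCWE-044 was -1.46 ± 0.84 (limma adjusted p = 1.00; exact permutation p = 0.0152, 0.446 adjusted over the 135 tests). The difference between its doses was 1.81 ± 0.84 (limma adjusted p = 0.942; exact permutation p = 0.0368, adjusted 0.446). With the processed signals these values were -0.35 and 1.08.

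Lactoferrin is also made by glandular and airway epithelium. The genes most like Ltf were Sult1d1 (r = 0.929), Calml3 (0.924), Agr2 (0.922), Serpina9 (0.912) and Acsm1 (0.907), and 81 named genes exceeded r = 0.8. The mean of the 4 tested club cell markers followed Ltf at r = 0.895, and at 0.918 with slide means removed. The 10 other secondary and tertiary granule genes followed it at 0.509, and at 0.556 with slide means removed. The 12 other mature neutrophil genes followed it at 0.299. Mast cell markers did so at 0.639 and alveolar macrophage markers at 0.522. The club list ran from -0.63 to 2.49 over the arrays, and in the groups from 0.28 to 2.49 with 18 µg of NRCWE-045, 0.12 to 2.07 in controls and -0.58 to 0.24 with 18 µg of NRCWE-044. The part of airway epithelium in the Ltf values was not tested. These Ltf, club and other list values were looked at after the Ltf pattern was seen.

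Elane, the gene of neutrophil elastase, and Mmp8 had small changes, none past the threshold. The Elane probe was well above background in both channels on all 34 arrays, with median intensities of 307.8 in Cy5 and 205.8 in Cy3. Whether it reports Elane RNA alone was not tested. Elane ran from -0.30 to 0.34 over the 34 arrays, with group means between -0.05 and 0.12. Its changes against controls at 54 µg were -0.13 ± 0.11, -0.08 ± 0.11 and -0.13 ± 0.11. Mmp8 was 1.39, 0.73, 0.43, 0.75 and 0.77 in controls and reached its highest value, 2.04, on replicate 1 of NRCWE-045 18 µg, the array with the highest S100a8. The Mmp8 changes at 54 µg were 0.03 ± 0.24, 0.09 ± 0.24 and -0.06 ± 0.24, with 95% intervals inside -0.54 to 0.57.

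Among other neutrophil genes no change against the controls passed the threshold. Of 51 listed granule, receptor and mature neutrophil genes outside the 10, 43 were tested and 0 were called in each of the 17 comparisons of groups. At an unadjusted p under 0.05 the counts at 54 µg were 8 with NRCWE-043 and 8 with NRCWE-044, all higher than controls, and 3 with NRCWE-045, beside 5.63%, 5.84% and 3.92% of all units. Their median changes were 0.14, 0.20 and 0.04, with 35, 31 and 27 of 43 above 0. At 18 µg the counts were 2 (1 of them lower), 2 and 6, beside 4.35%, 3.13% and 7.92% of units, and the medians 0.06, 0.04 and 0.08; with NRCWE-045 the count was higher at 18 than at 54 µg. The 3 genes of each list with the smallest p in the mean of the materials at 54 µg included the chemokine receptor Cxcr1 at 1.04 ± 0.29 (limma adjusted p = 0.55) and the protease inhibitor Slpi at 0.98 ± 0.32 (adjusted p = 0.621). They also included the precursor factor Gfi1 at 0.35 ± 0.11 (adjusted p = 0.608) and Lcn2, the secondary granule siderophore-binding protein, at 0.51 ± 0.24 (adjusted p = 0.861). Of the 12 listed ligands that mobilise or attract neutrophils, 7 were tested and 0 were called at 54 µg; Cxcl1, a ligand of Cxcr2, had 0.60 ± 0.32 (adjusted p = 0.919).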

How the data were processed

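Lung RNA of 34 mice was measured on 2-colour Agilent arrays. Per the file headers the authors extracted spots with Agilent Feature Extraction 11.0.1.1; the deposited files give the median intensity of spot and local background in each channel, processed intensities and flags of 0 or 1. A deposited table of the whole series holds the log2 ratio of Cy5 to Cy3, made by steps not given in the sources used here; it followed the values used here with r of 0.994 to 0.998 and array medians of -0.04 to -0.00, on the log2 scale and in the same direction.

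Background was corrected by normexp (offset 50) and ratios normalized by loess within arrays (limma 3.58.1, R 4.3.3). Control spots (3671 of 62976) and outlier-flagged spots (0.398 to 0.631%) were left out and repeated spots averaged. Population outlier flags were added to this rule after results without them had been seen; leaving out non-uniform spots alone is given as an alternative. Of 55681 probes 27235 had a RefSeq symbol. The brightest probe of each gene was tested where Cy5 was well above background on at least 3 arrays, 29316 units in all. A model of 7 group means was moderated by empirical Bayes and p-values adjusted over all units by Benjamini-Hochberg at 0.05, for 18 comparisons. Saturated member spots numbered 0. The number of arrays limits precision. The method was tested on simulated data of independent normal noise. That noise held no slide effects and no single far arrays, so the test does not cover these features of the data.

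Groups came from the treatment labels; 1 control array is titled NRCWE-043 at 0 µg. Replicates are numbered in deposit order. The labels state 5 mice per group, and the NRCWE-044 and NRCWE-045 18 µg groups here hold 6 and 3. The genes, lists and comparisons were chosen with earlier results of these data known. Named genes were the 10 chosen, the 5 genes most like S100a8 and Ngp, and up to 3 genes per list by p; those most like Csf3r and Ltf were added after their values were seen.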

Additional observations from a re-analysis of the deposited data

Results flagged for a closer look

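Of 54 sets of 4 or more arrays (a gene in a group), 12 had an array far from the others by Dixon's test, where chance alone flags about 1 in 20. For Ngp these were control replicate 1 at a log2 ratio of 1.15 (the others reached 0.09), NRCWE-043 18 µg replicate 5 at 1.61, NRCWE-043 54 µg replicate 4 at 1.44, NRCWE-044 18 µg replicate 1 at 2.03 and NRCWE-044 54 µg replicate 2 at 2.13. For Camp they were NRCWE-043 54 µg replicate 4 at 3.34 and NRCWE-044 54 µg replicate 2 at 4.62. For Mpo they were NRCWE-043 18 µg replicate 5 at 1.60, NRCWE-044 18 µg replicate 1 at 1.29 and NRCWE-044 54 µg replicate 2 at 2.09. S100a8 was low in control replicate 2 at 1.57, where the others ran from 2.08 to 2.28, and Mmp8 was high in NRCWE-044 18 µg replicate 1 at 1.26. The Csf3r probe differed between NRCWE-043 and NRCWE-045 at 18 µg by -0.96 in the test of that difference (5 against 3 mice, limma adjusted p = 0.0272).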

How the results depend on the processing

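The count of neutrophil genes called was recomputed for 18 comparisons under 12 other settings and without each array of the groups compared, 435 values in all, and 424 equalled the count reported. That reported count was 0 in every comparison except NRCWE-043 against NRCWE-045 at 18 µg. For NRCWE-043 against NRCWE-045 at 18 µg the count fell from 1 to 0 with processed signals, median centring, slide as a fixed block, array weights and the Cy5 channel alone, where the Csf3r difference was -0.97, -0.83, -0.90, -0.91 and -0.64 (limma adjusted p = 0.0918, 0.128, 0.0635, 0.0632 and 0.237). Leaving out single arrays gave counts of 0 to 1 for it, and 0 to 1 for any difference among the 7 groups, where Csf3r was called without NRCWE-043 18 µg replicate 4. The causes were not tested. The Cy5 channel alone and the rule on outlier flags were added after seeing the data; leaving out non-uniform spots alone, the first rule used, gave -0.96 (adjusted p = 0.0272) and changed no count. Among 148 values of single genes the 1 called value, that of Csf3r, did not change sign (0 reversed). With processed signals 14 of 148 moved by more than the within-group SD and 24 changed sign, the most of any setting that kept all arrays. Without single arrays, 172 of 1607 recomputed values changed sign. With the filter at 17 arrays Mpo was not tested. Signal over background limits Mpo and Ngp, which were well above it on 9 and 19 of 34 arrays. No paired analysis was possible because replicate numbers follow deposit order and pair no mice.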
